A study of Mus musculus with 6 samples.

Results

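The G1/S and DNA replication genes are 41 genes that carry a cell from G1 into S phase and copy its DNA, and they were followed in polyA+ RNA of the mouse cerebral cortex at embryonic day (E) 18.5. The genes were listed by symbol for their roles, by a rule that names no measured value but was drawn up with earlier results of these data known. All 41 were found, each as 1 of the 59484 features of the deposited table, of which 23505 carry a gene symbol. RNA-seq compared 3 wild-type samples with 3 samples lacking both Sam68 and SLM2 (*Sam68:Slm2* dKO), a pair of related RNA-binding proteins encoded by *Khdrbs1* and *Khdrbs3*, to ask how the transcriptome depends on the joint loss. All mice were C57BL/6 and received no treatment that the sources name, the knockouts were carried by the whole animal rather than by 1 cell type, and each sample was E18.5 cortex with all its cell types. The labels number the samples within a genotype but do not say that each is a separate embryo, so *P*-values measure the spread between these samples. The study bred dKO mice from parents that lacked SLM2 and were heterozygous for *Sam68*. That cross gives no wild-type pups, so wild-type embryos would come from other litters. Litters are not labelled, and a difference between genotypes cannot be told apart from one between litters.

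Before S phase, cyclin D and cyclin E kinases free the E2F transcription factors from the retinoblastoma proteins, and E2F then drives the genes of replication. The origin recognition complex, CDC6 and CDT1 load the ring of MCM2 to MCM7 on DNA in G1, and CDC45 and the GINS complex turn that ring into the active helicase at which primase, polymerases and the sliding clamp work. In the embryonic cortex these genes are expressed in dividing radial glia and intermediate progenitors, while most cells at E18.5 are postmitotic neurons, so that in whole tissue a change in the number of dividing cells and a change in RNA per dividing cell cannot be told apart.

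The deposited values are read counts divided by a size factor of each library, called normalized counts here. The libraries held between 31837922 and 40896541 reads on the listed features, so that 1 read was worth between 0.877 and 1.16 normalized counts, and no member was counted by fewer than 30 reads in a library. *Khdrbs1* was at 8231, 8436 and 7974 normalized counts in the wild-type libraries and at 114, 197 and 146 in the dKO libraries (limma log2 fold change -5.78 ± 0.16 (SE)). *Khdrbs3* was at 13543, 15215 and 12764 (wild-type) and 7059.5, 6349.7 and 6547 (dKO) (log2 fold change -1.05 ± 0.09, adjusted *P* = 0.000855), with a dKO mean of 0.481 of the wild-type mean. Both targeted genes were thus lower in each library labelled dKO, although *Khdrbs3* reads were still counted and its difference missed the adjusted threshold without the trend and robust settings of limma. The libraries numbered 1 stood apart in both genotypes: across 13978 features their deviation from the mean of the 6 libraries rank-correlated with transcript length at 0.26 (wild-type 1) and 0.33 (dKO 1), against -0.23 to -0.12 in the other four. The wild-type library numbered 1 was the lowest of its genotype for 29 of the 41 members (70.7%) and for 35.8% of all features tested, so results are also given without the libraries numbered 1.

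Replication genes leaned toward higher values in the dKO cortex, by small amounts and with no single gene past the adjusted threshold. Fold changes are dKO over wild-type on the log2(normalized count + 1) scale from limma, for the 18970 features averaging 10 or more normalized counts, and all 41 members were among them. An adjusted *P*-value under 0.05 was reached by 0 of the 41 members and by 0.1% of all features tested (19 features), and the lowest adjusted *P*-value of a member was 0.308, for *Uhrf1*. Fitted to recovered reads, edgeR and DESeq2 also called 0 members. At an unadjusted *P*-value under 0.05, 12 members (29.3%) were higher in dKO, where 4.92% of all features were (*Uhrf1*, *Rrm2*, *Mcm2*, *Mcm5*, *Ccnd2*, *Fen1*, *Tk1*, *E2f1*, *Mcm7*, *Pcna*, *Lig1* and *Chaf1a*, in order of *P*), and 0 members were lower, where 6.58% of all features were. The log2 fold change was above 0 for 38 members (92.7%), against 50.6% of all features, and its median was 0.18, against 0.004 over all features. The members below 0 were *Cdc6*, *Ccne1* and *Pola1*.

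For 13 members the lowest dKO library lay above the highest wild-type library (31.7%), as it did for 7.89% of all features. The reverse separation was found for 1 member, *Cdc6*, where 8.48% of all features showed it. Many members are transcribed together in dividing cells, so members are not independent of each other. These shares describe the list and were not tested. With both libraries numbered 1 left out, the median was 0.12, 6 members were higher at an unadjusted *P*-value under 0.05 and 6 were below 0. The members that kept an unadjusted *P*-value under 0.05 there were *Ccnd2*, *E2f1*, *Mcm5*, *Pcna*, *Rrm2* and *Uhrf1*. Single libraries mattered too, since 6 members passed that threshold without wild-type library 1 (9 below 0) or without dKO library 3 (8 below 0), 7 without wild-type library 3 and 16 without wild-type library 2. These counts are given without the share of all features in the same fit, so they do not compare the members with other genes.

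**Figure D1:**
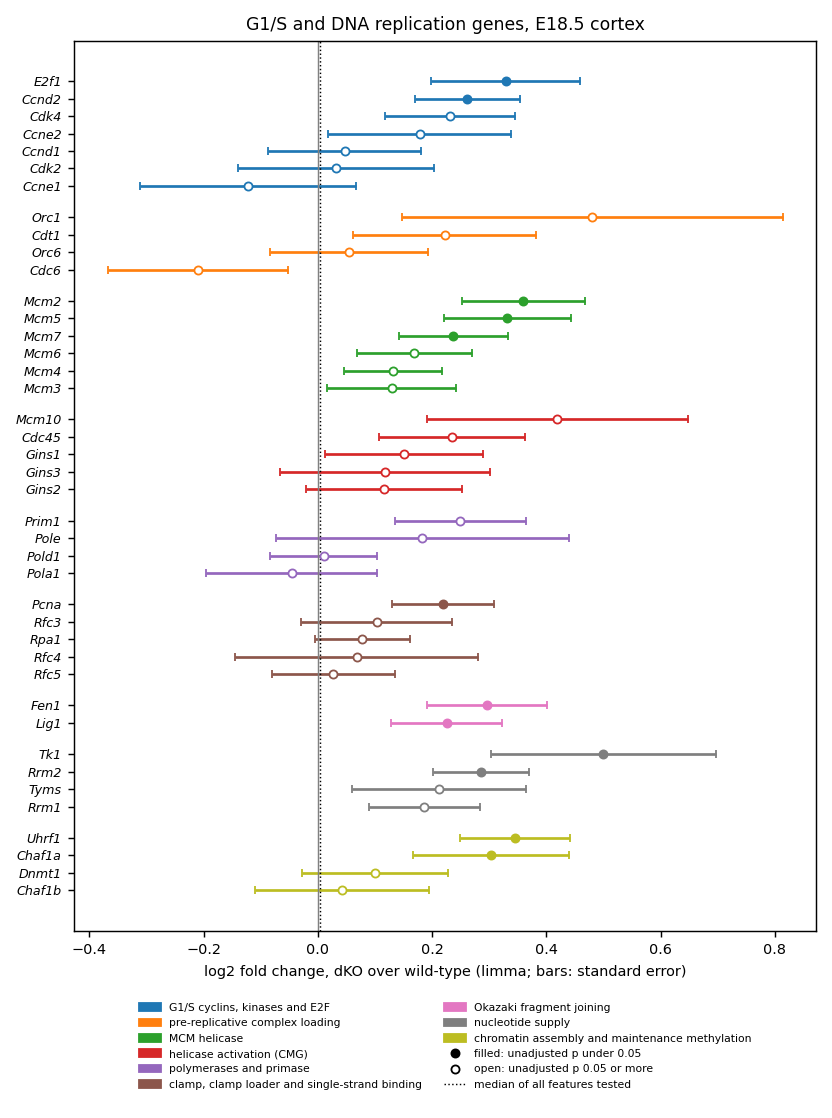
Log2 fold change (dKO over wild-type, limma, x axis) of the 41 members, grouped by role on the y axis. Points are estimates and bars their standard errors, filled points mark an unadjusted *P*-value under 0.05 and the dotted line is the median of all features tested (0.004); 38 points lie above 0 and *Cdc6*, *Ccne1* and *Pola1* below.

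Among the regulators of the G1/S transition, 6 of 7 members were above 0 (median 0.18) and 2 had an unadjusted *P*-value under 0.05, *E2f1* and *Ccnd2*. *E2f1* (chr2:154559400-154569892, mm10, minus strand), the activator E2F that switches on S-phase genes, was at 411, 419 and 337 normalized counts in the wild-type and 470.1, 464 and 527 in the dKO libraries. All 3 dKO libraries lay above all 3 wild-type libraries, the third wild-type library being the lowest. The log2 fold change was 0.33 ± 0.13 (SE, adjusted *P* = 0.394, limma). *Ccnd2*, a D-type cyclin of cortical progenitors, was at 1881, 2178 and 2238 in the wild-type and 2430.3, 2677 and 2429.9 in the dKO libraries, again without overlap (log2 fold change 0.26 ± 0.09, adjusted *P* = 0.368). Its relative *Ccnd1* had means of 409 ± 40.4 and 423 ± 45.9 (SD, n = 3 each), with overlapping genotypes and a log2 fold change of 0.05. The *Ccnd1* feature overlaps that of *Oraov1*, whose mean was 103% of its own. The *Ccnd2* to *Ccnd1* ratio was 5.19 ± 0.892 in wild-type and 5.97 ± 0.428 in dKO (SD, n = 3 each), and the genotypes overlapped (exact permutation *P* = 0.3).

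*Cdk4*, the kinase partner of the D-type cyclins, was the most abundant member per length. It was at 6350.4, 8848 and 7570.3 normalized counts in the wild-type and 8422, 8574 and 9529 in the dKO libraries, and the second wild-type library lay above the first and second dKO libraries. Its log2 fold change was 0.23 ± 0.11 (adjusted *P* = 0.471), and 116 bases at the 3′ end of its feature are shared with that of *Tspan31*. *Cdk2*, the kinase of cyclin E, had means of 153 ± 4.89 and 157 ± 18.5 and a log2 fold change of 0.03. The cyclins E lay on either side of 0, *Ccne2* at 0.18 and *Ccne1* at -0.12, and the ranges of the genotypes overlapped for both. The *Ccne2* feature overlaps that of *Ints8*, whose mean was 792% of its own.

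The genes that load the helicase on origins included both *Orc1*, with the second largest fold change of the 41 members, and *Cdc6*, with the lowest. *Orc1* (chr4:108579451-108616028, mm10, plus strand), the largest subunit of the origin recognition complex, was scarce, at 32.3, 47.3 and 33.3 normalized counts in the wild-type and 62.6, 64.8 and 34.8 in the dKO libraries. The first and second dKO libraries lay above the wild-type range and the third within it. The log2 fold change was 0.48 ± 0.33 (adjusted *P* = 0.591), and an unnamed feature with 92.5% of its mean overlaps the gene. *Cdc6* (chr11:98907808-98923942, mm10, plus strand), the ATPase that joins the origin recognition complex before the MCM ring is loaded, was at 181, 169.7 and 191 in the wild-type and 152, 155 and 160.1 in the dKO libraries. The highest dKO library lay below the lowest wild-type library, but the log2 fold change of -0.21 ± 0.16 did not pass even the unadjusted threshold (adjusted *P* = 0.621). *Cdc6* stayed below 0 in each of the 17 alternative settings, between -0.25 and -0.11.

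*Cdt1*, which brings the MCM ring to the origin, had means of 185 ± 17.8 in wild-type and 216 ± 21.3 in dKO (log2 fold change 0.22 ± 0.16, overlapping). *Orc6*, a small subunit of the origin recognition complex, was the most abundant of the loading genes, at 886, 1218 and 1065 (wild-type) and 953, 1068 and 1268 (dKO). Its libraries interleaved (log2 fold change 0.06 ± 0.14), and 172 bases of its feature are shared with *Vps35*.

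All 6 subunits of the MCM2-7 ring, the core of the replicative helicase, had positive fold changes (median 0.20), but they spread from 0.13 for *Mcm3* to 0.36 for *Mcm2*. Genotypes did not overlap for 4 of them, *Mcm2*, *Mcm4*, *Mcm5* and *Mcm7*. *Mcm2* (chr6:88883475-88898780, mm10, minus strand) was at 1630.2, 1814 and 1624 normalized counts in the wild-type and 2444, 1869 and 2222 in the dKO libraries. The first dKO library was the highest and the second lay only just above the second wild-type library. The log2 fold change was 0.36 ± 0.11 (adjusted *P* = 0.323), and without both libraries numbered 1 the unadjusted *P*-value was no longer under 0.05. *Mcm5* was at 1434, 1624 and 1515 (wild-type) and 1805, 1724 and 2258 (dKO), the third dKO library standing well above the others (log2 fold change 0.33 ± 0.11, adjusted *P* = 0.357). *Mcm7*, the most abundant of the 6, was at 3665, 4688 and 4206 (wild-type) and 5002, 4717 and 5013 (dKO). The dKO libraries 1 and 3 lay close together, and library 2 was barely above wild-type library 2 (log2 fold change 0.24 ± 0.10, adjusted *P* = 0.396).

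The other subunits had smaller values, *Mcm6* at 0.17 ± 0.10, *Mcm4* at 0.13 ± 0.09 and *Mcm3* at 0.13 ± 0.11 (log2 fold change, SE). For *Mcm4* the narrow wild-type libraries (1799 ± 28.6, SD, n = 3) lay just below the dKO libraries (1975 ± 158). The *Mcm2* to *Mcm3* ratio was 1.49, 1.73 and 1.78 in the wild-type and 2.01, 1.90 and 1.93 in the dKO libraries. The ranges did not overlap, with an exact permutation *P*-value of 0.1, the smallest that 3 against 3 allow, and 0.3 after adjustment over the 5 ratios compared. The other 4 ratios (*Ccnd2* to *Ccnd1*, *Ccne2* to *Ccne1*, *Rrm2* to *Rrm1* and *Chaf1a* to *Chaf1b*) overlapped between genotypes.

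Although the 6 proteins assemble in equal numbers, their RNA levels per length were far apart. Per kilobase of annotated exon (GENCODE M21), the wild-type normalized counts were 946 ± 116 for *Mcm7*, 501 ± 7.96 for *Mcm4*, 382 ± 23.9 for *Mcm5*, 272 ± 25.8 for *Mcm3*, 243 ± 15.5 for *Mcm2* and 180.0 ± 8.7 for *Mcm6* (SD, n = 3). *Mcm3* and *Mcm2* overlapped in the wild-type libraries and the other neighbours in this order did not. Divided by the longest annotated transcript instead, *Mcm2* moved from the fifth to the third place, at 483 ± 31.0 per kilobase, since its annotated exons are long (6956 bases against a longest transcript of 3494 bases).

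**Figure D2:**
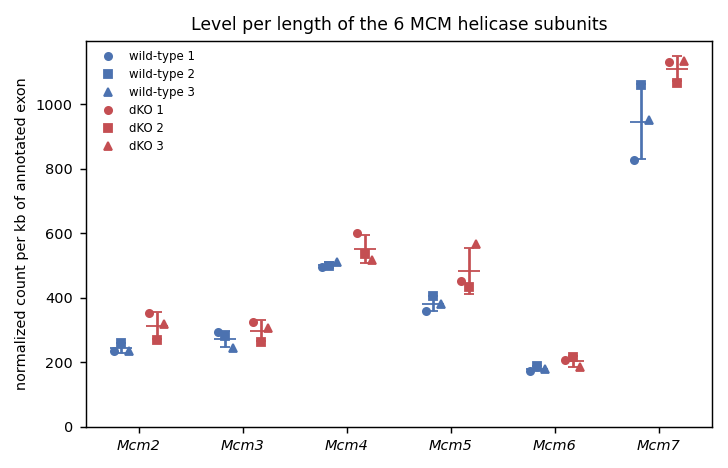
Normalized counts per kilobase of annotated exon (y axis) of the MCM2-7 subunits (x axis), with 3 wild-type (blue) and 3 dKO libraries (red) as points, the mean as a line and the SD as bars. *Mcm7* is the highest in both genotypes (946 ± 116 and 1110 ± 37.9) and *Mcm6* the lowest (180.0 and 203 on average).

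Promoter sequences are shown for the MCM subunits with the largest fold changes and for *Cdc6*, the member whose genotypes separated in the other direction, since E2F sites are the textbook feature of replication promoters. Each is a RefSeq window of 300 bases (GRCm38.p6), 250 before to 50 after the annotated start, on the strand of the gene, at chr6:88898731-88899030 (minus strand), chr8:75109259-75109558 (plus strand), chr5:138171834-138172133 (minus strand) and chr11:98907901-98908200 (plus strand). Where a gene had several windows, the window with the most E2F matches was taken. Capitals mark the E2F letters searched, TTTCCCGC, TTTCGCGC, TTTGCCGC and TTTGGCGC on either strand. The *Mcm7* window overlaps the feature of the neighbouring gene *Ap4m1*, which begins at 138172019. The windows of *Cdc6* and *Mcm7* lie inside the features of these genes, whose 5′ ends are at 98907808 and 138172423. Their annotated starts are thus not the 5′ ends of the features. The last bases of the *Mcm2*, *Mcm7* and *Cdc6* windows were found in a GENCODE M21 transcript of the gene, while those of *Mcm5* were not.
Mcm2: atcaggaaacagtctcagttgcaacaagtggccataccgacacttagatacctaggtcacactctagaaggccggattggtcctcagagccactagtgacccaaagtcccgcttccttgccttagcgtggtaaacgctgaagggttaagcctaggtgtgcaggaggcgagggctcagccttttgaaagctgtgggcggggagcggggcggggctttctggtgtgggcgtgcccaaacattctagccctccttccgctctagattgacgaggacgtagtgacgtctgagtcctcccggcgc
Mcm5: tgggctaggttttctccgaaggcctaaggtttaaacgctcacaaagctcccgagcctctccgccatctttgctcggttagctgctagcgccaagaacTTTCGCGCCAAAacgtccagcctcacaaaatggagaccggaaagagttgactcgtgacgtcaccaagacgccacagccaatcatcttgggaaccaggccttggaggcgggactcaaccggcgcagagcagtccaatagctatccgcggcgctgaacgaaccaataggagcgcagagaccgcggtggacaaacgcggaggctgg
Mcm7: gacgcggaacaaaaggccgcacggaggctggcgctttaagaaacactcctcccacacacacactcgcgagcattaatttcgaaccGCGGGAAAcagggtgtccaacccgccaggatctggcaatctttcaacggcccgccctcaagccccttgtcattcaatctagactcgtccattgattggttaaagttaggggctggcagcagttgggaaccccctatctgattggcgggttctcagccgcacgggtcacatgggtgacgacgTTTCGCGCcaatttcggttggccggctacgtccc
Cdc6: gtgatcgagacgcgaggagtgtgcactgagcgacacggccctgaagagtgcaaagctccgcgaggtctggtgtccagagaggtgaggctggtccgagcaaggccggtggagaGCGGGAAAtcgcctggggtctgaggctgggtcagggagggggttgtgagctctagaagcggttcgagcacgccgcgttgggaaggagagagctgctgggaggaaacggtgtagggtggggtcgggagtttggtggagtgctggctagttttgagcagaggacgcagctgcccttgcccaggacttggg

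The *Mcm2* window holds none of these letters, that of *Mcm5* holds 2 overlapping matches, that of *Mcm7* holds 2 and that of *Cdc6* holds 1. Of the 41 members, 34 had a window in the table, and 15 of them (44.1%) held at least 1 match in any of their windows, against 704 of 27025 genes with a window (2.60%). Counted by window, 15 of 41 windows of members (36.6%) held a match, against 744 of 32851 windows of all genes (2.26%). *Mcm4*, *Pole*, *Ccnd2*, *Ccnd1*, *Gins2*, *Ccne2* and *Gins1* had no window. The members with a match were *Cdc6*, *Cdk2*, *Cdt1*, *Dnmt1*, *Gins3*, *Lig1*, *Mcm3*, *Mcm5*, *Mcm6*, *Mcm7*, *Orc1*, *Pola1*, *Pold1*, *Rfc3* and *Uhrf1*. Of the 22 matches, 4 share bases with another E2F match on the opposite strand (in *Mcm5* and *Mcm6*), 1 with a CCAAT (in *Mcm7*) and 0 with the CHR letters TTTGAA or TTCGAA. They began between 219 bases before and 39 bases after the annotated start, 12 of them no farther than 100 bases before it. Stretches of 40 bases around 1 match follow for the member with the lowest unadjusted *P*-value (*Uhrf1*, chr17:56304112-56304151, plus strand), for the one with the largest fold change among those with a match (*Orc1*, chr4:108579411-108579450, plus strand) and for 2 members near or below 0 (*Pold1*, chr7:44548766-44548805, minus strand, and *Pola1*, chrX:93632270-93632309, minus strand).
Uhrf1: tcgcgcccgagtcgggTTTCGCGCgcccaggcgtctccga
Orc1: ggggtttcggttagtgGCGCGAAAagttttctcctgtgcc
Pold1: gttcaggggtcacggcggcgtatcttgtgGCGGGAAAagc
Pola1: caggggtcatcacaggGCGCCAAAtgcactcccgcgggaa

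Fold changes were no larger among the members with a match. The 15 members with a match had a median log2 fold change of 0.13 (from -0.21 to 0.48), the 19 with a window and no match 0.23 (from -0.12 to 0.50) and the 7 without a window 0.15. These medians were not compared by a test, and a match of letters is not evidence that a factor binds there. Promoters of G2/M genes, which are known for the CHR element and the CCAAT box, served for comparison. An E2F match was found in 1 of 17 G2/M genes with a window (5.88%), while these CHR letters, searched on either strand, were found in 13 of 17 (76.5%), in 7 of the 34 replication members (20.6%) and in 21.7% of all genes. CCAAT, on either strand, was found in 15 of 17 G2/M genes (88.2%), in 21 of 34 members (61.8%) and in 41.1% of all genes.

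**Figure D3:**
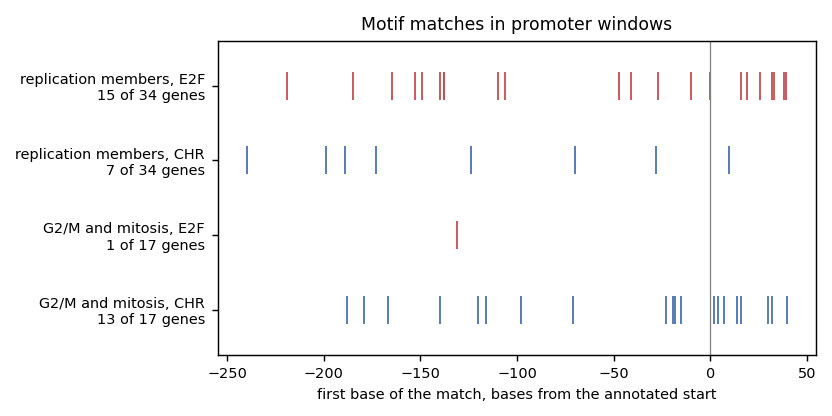
Position of the first base of each motif match (x axis, bases from the annotated start in RefSeq) in the promoter windows of the replication members and of the G2/M list (y axis), with 1 tick per match. E2F matches were found in 15 of 34 members and 1 of 17 G2/M genes, and CHR matches in 7 of 34 and 13 of 17.

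All 5 factors that activate the loaded helicase had positive fold changes (median 0.15) and none had an unadjusted *P*-value under 0.05. *Mcm10*, which binds the helicase as it is switched on and is no part of the ring, was at 80.8, 144 and 109.6 normalized counts in the wild-type and 156, 139 and 142 in the dKO libraries. The dKO libraries lay close together, while wild-type libraries 1 and 3 lay below them and wild-type library 2 lay within their range. Its log2 fold change was 0.42 ± 0.23 (adjusted *P* = 0.504) and lay between 0.21 and 0.62 when single libraries were left out. *Cdc45* was the only one of the 5 without overlap, at 333, 363 and 355 (wild-type) and 375, 408 and 458 (dKO) (log2 fold change 0.23 ± 0.13, adjusted *P* = 0.504). *Gins1*, the most abundant GINS subunit among the members, was at 495, 682 and 531 (wild-type) and 577, 625 and 679.7 (dKO). Its second wild-type library was the highest of the 6 (log2 fold change 0.15 ± 0.14). *Gins2* and *Gins3* had log2 fold changes of 0.12 and 0.12, with overlapping genotypes. The *Gins2* feature overlaps that of *Gse1*, whose mean was 1219% of its own.

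None of the 4 polymerase and primase genes had an unadjusted *P*-value under 0.05 (median log2 fold change 0.10). *Pold1*, the catalytic subunit of the lagging-strand polymerase delta, was at 1149.9, 1285 and 1208 normalized counts in the wild-type and 1302, 1131 and 1238 in the dKO libraries. The libraries of both genotypes interleaved, and the log2 fold change was 0.01 ± 0.09 (adjusted *P* = 0.974). *Pola1*, the catalytic subunit of the polymerase that extends the RNA primer, was at -0.05 ± 0.15 with overlapping genotypes. *Pole*, the leading-strand polymerase, was the lowest member per length, with means of 66.0 ± 6.3 and 76.2 ± 17.5 normalized counts (log2 fold change 0.18 ± 0.26). *Prim1*, the primase that makes the primer, had means of 835 ± 124 and 986 ± 15.6 (log2 fold change 0.25 ± 0.11, adjusted *P* = 0.441), and the second wild-type library lay within the dKO range.

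Of the sliding clamp and the proteins that work with it, 1 of 5 genes had an unadjusted *P*-value under 0.05. *Pcna*, the clamp itself, was at 3809, 4499 and 4273 normalized counts in the wild-type and 4503, 5123 and 5000.1 in the dKO libraries. The genotypes were separated by a narrow gap between the second wild-type and the first dKO library (log2 fold change 0.22 ± 0.09, adjusted *P* = 0.398). The clamp loader subunits *Rfc3*, *Rfc4* and *Rfc5* had log2 fold changes of 0.10, 0.07 and 0.03, and *Rpa1*, which coats single-stranded DNA, 0.08. Genotypes overlapped for these 4. The features of *Rfc4* and *Rfc5* overlap the far more abundant *Eif4a2* and *Wsb2*.

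Both genes that finish Okazaki fragments had an unadjusted *P*-value under 0.05 and no overlap between genotypes. *Fen1*, the flap endonuclease that removes primers, was at 881, 922 and 917 normalized counts in the wild-type and 1089, 1001 and 1263 in the dKO libraries. The wild-type libraries were tightly grouped and all dKO libraries lay above them (log2 fold change 0.30 ± 0.11, adjusted *P* = 0.368). *Lig1*, the ligase that seals the nicks, was at 1340.1, 1304 and 1463 (wild-type) and 1768, 1469 and 1574 (dKO). Wild-type library 3 and dKO library 2 nearly met (log2 fold change 0.23 ± 0.10, adjusted *P* = 0.413), and without both libraries numbered 1 its unadjusted *P*-value was likewise not under 0.05. A feature with 45.9% of its mean, *6330408A02Rik*, overlaps *Lig1*, and *Tmem258* shares 34 bases with *Fen1*.

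Among the enzymes of nucleotide supply, *Tk1* had the largest fold change of all 41 members. *Tk1* (chr11:117815519-117826014, mm10, minus strand), the thymidine kinase of S phase, was at 237, 414 and 295 normalized counts in the wild-type and 386, 421 and 503 in the dKO libraries. The second wild-type library lay above the first dKO library and just below the second, so that the genotypes overlapped. The log2 fold change was 0.50 ± 0.20 (adjusted *P* = 0.394), and it ran from 0.31 without wild-type library 1 to 0.71 without wild-type library 2. The *Tk1* feature lies inside that of *Syngr2*/*Afmid*, whose mean was 12.5% of its own. *Rrm2* (chr12:24708254-24714145, mm10, plus strand), the S-phase subunit of ribonucleotide reductase, was far steadier, at 2944, 3065 and 3048 (wild-type) and 3999, 3379.8 and 3686 (dKO). All dKO libraries lay above the narrow wild-type range (log2 fold change 0.29 ± 0.08, adjusted *P* = 0.319). *Rrm1*, its large partner, was at 3622, 3757 and 3666 (wild-type) and 4874, 3918 and 3848 (dKO), without overlap but with only the first dKO library well above the rest (log2 fold change 0.19 ± 0.10, adjusted *P* = 0.489). *Tyms*, thymidylate synthase, had overlapping genotypes with means of 288 ± 51.5 and 330.3 ± 10.2 (log2 fold change 0.21 ± 0.15).

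*Uhrf1* and *Rrm2* were the 2 members with an unadjusted *P*-value under 0.05 in the 6-library comparison and in each alternative. *Uhrf1* (chr17:56303337-56323485, mm10, plus strand), which reads hemimethylated DNA behind the fork and recruits the methyltransferase DNMT1, was at 1018, 1090.2 and 1183 normalized counts in the wild-type and 1411, 1288 and 1479 in the dKO libraries. A clear gap separated the third wild-type from the second dKO library. The log2 fold change was 0.34 ± 0.10 (adjusted *P* = 0.308), and it stayed between 0.28 and 0.40 in all settings. *Dnmt1* itself, far more abundant at 9754, 7916 and 7744 (wild-type) and 10890.1, 7951 and 8489 (dKO), had interleaved libraries, with the first library the highest in each genotype (log2 fold change 0.10 ± 0.13). *Chaf1a*, the large subunit of the chromatin assembly factor that deposits histones on new DNA, was at 779.9, 998 and 694 (wild-type) and 1052, 908 and 1062 (dKO). Its second wild-type library lay between the dKO libraries (log2 fold change 0.30 ± 0.14, adjusted *P* = 0.433). The overlapping gene *Ubxn6* had 249% of its mean. *Chaf1b*, the partner subunit, was at 0.04 ± 0.15.

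**Figure D4:**
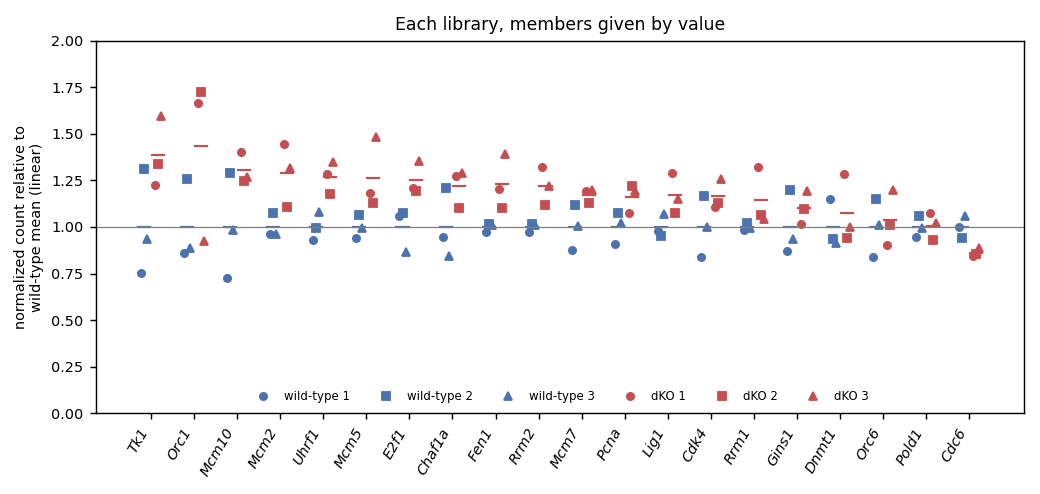
Normalized counts of each library relative to the wild-type mean of the gene (y axis, linear) for the members given by value (x axis), with wild-type libraries in blue, dKO libraries in red and the mean of each genotype as a dash. All dKO points of *Uhrf1*, *Rrm2*, *Fen1* and *Mcm2* lie above the wild-type points, those of *Tk1*, *Mcm10* and *Chaf1a* overlap them, and those of *Cdc6* lie below.

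Per kilobase of annotated exon, the members covered a wide range, from 5.91 ± 0.565 for *Pole* to 2336 ± 384 for *Cdk4* in wild-type (normalized counts per kilobase, SD, n = 3). *Pcna* (1747 ± 147), *Dnmt1* (1148 ± 151), *Rrm2* (1089.5 ± 23.8) and *Mcm7* (946 ± 116) followed *Cdk4*, and of these neighbours *Dnmt1* and *Rrm2* overlapped in the wild-type libraries. At the other end, *Orc1* (10.8 ± 2.4), *Mcm10* (14.5 ± 4.11) and *Cdk2* (24.5 ± 0.787) preceded *Pole*. The order by longest transcript was nearly the same, with a rank correlation of 0.98 over the 41 genes. The features of 18 members overlap another feature averaging 10 or more normalized counts. The library kit kept the strand, but whether the counting used it is not given in the sources used here, so reads in shared bases cannot be assigned.

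Other genes of the pathway were read from a list of 81 symbols outside the members, of which 80 were found and 79 tested. An adjusted *P*-value under 0.05 was reached by 0, while 14 were higher and 1 lower at an unadjusted *P*-value under 0.05 (17.7% higher, against 4.92% of all features). The median log2 fold change was 0.12. The share differed between kinds of gene, with 9 of 25 S-phase E2F targets higher (median 0.23), 2 of 32 further replisome subunits (*Pole3* and *Topbp1*, median 0.07) and 1 of 8 activators of G1/S (*Mycn*). Of 14 inhibitors of G1/S tested, *Cdkn1b* and *E2f8* were higher and *Cdkn1a* lower at that threshold (median -0.04). These differences between lists were not tested. The 15 genes at that threshold became 5 without both libraries numbered 1, 9 without wild-type library 1 or dKO library 1, and 8 without dKO library 3. Shares of all features in these fits are not given beside them.

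*Atad2*, a chromatin ATPase of S phase, had the largest fold change of the 79, at 82.7, 83.8 and 73.6 normalized counts in the wild-type and 137, 152 and 116 in the dKO libraries. No dKO library was as low as the highest wild-type library (log2 fold change 0.74 ± 0.20, adjusted *P* = 0.291). *Hells*, a chromatin remodeller needed for DNA methylation, was at 460.3, 581 and 608 (wild-type) and 800.4, 662 and 789.9 (dKO), also without overlap (log2 fold change 0.45 ± 0.13, adjusted *P* = 0.323). *Ung*, which removes uracil from new DNA, was at 117, 184 and 153 (wild-type) and 193, 207 and 229.7 (dKO). Its second wild-type library lay just below the first dKO library (log2 fold change 0.49 ± 0.19, adjusted *P* = 0.394).

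Marker lists of other cell cycle phases and cell types were read in the same libraries. At an unadjusted *P*-value under 0.05, 4.92% of all features were higher and 6.58% lower. All 19 genes of the G2/M and mitosis list were above 0 (median 0.30), and 9 (47.4%) were higher at an unadjusted *P*-value under 0.05. Their summed normalized counts were between 10957 and 13720 (wild-type) and between 14266 and 16499 (dKO). *Mki67*, the proliferation marker, was at 660.1, 542 and 453 (wild-type) and 848, 619 and 619 (dKO), with overlap (log2 fold change 0.33 ± 0.17), and *Top2a* at 1211, 1039 and 1196 (wild-type) and 1675, 1240.2 and 1219 (dKO), without (log2 fold change 0.25 ± 0.13, adjusted *P* = 0.488). In the intermediate progenitor list all 9 genes were above 0 (median 0.49) and 6 were higher at that threshold, with sums of 9538 to 13057 (wild-type) and 13632 to 16999 (dKO). *Eomes*, which defines these cells, was at 1359, 2047 and 1659.6 (wild-type) and 2819.6, 1973 and 2300.0 (dKO) (log2 fold change 0.49 ± 0.16, adjusted *P* = 0.357), and the second wild-type library overlapped the dKO range. In all 3 lists the first wild-type library had the lowest mean of its genotype. By immunofluorescence, the study counted fewer cells with TBR2, the protein of *Eomes*, and fewer with SOX2 in dKO cortex at E18.5. It also reported reduced Ki67 staining at an earlier stage. Those are counts of cells by protein, and how they relate to these RNA levels was not tested.

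Radial glia markers showed no common direction, with 6 of 13 above 0 (median -0.02) and sums of 49771 to 61968 (wild-type) and 50842 to 63170 (dKO). *Pax6*, their transcription factor, was at 791, 840.0 and 909 (wild-type) and 1034, 952 and 1102 (dKO), without overlap (log2 fold change 0.28 ± 0.10, adjusted *P* = 0.369). Of 15 postmitotic neuron markers, 6 were higher and 1 lower at an unadjusted *P*-value under 0.05 (median 0.18, sums of 356323 to 384305 and of 390798 to 435559). *Tubb3*, neuronal tubulin, was at 148988, 137245 and 143717 (wild-type) and 159016, 161506 and 166759 (dKO), without overlap, and *Neurod6*, of excitatory neurons, at 45733, 66252 and 45180.0 (wild-type) and 63292, 48918 and 71754 (dKO), with overlap. Lists of 3 kinds of non-neuronal cells lay below 0, with 6 of 6 oligodendrocyte precursor genes (median -0.71, sums of 7786 to 13527 and of 4333 to 7386, 4 lower at that threshold), 10 of 10 endothelial and mural genes (median -0.20, sums of 12103 to 13983 and of 9818 to 12033, 3 lower) and 7 of 7 meningeal genes (median -0.69, sums of 609 to 1682 and of 592 to 684, 1 lower). No marker found for these lists was at 0 in all 6 libraries. The part of these lists in the values of the replication genes was not tested.

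**Figure D5:**
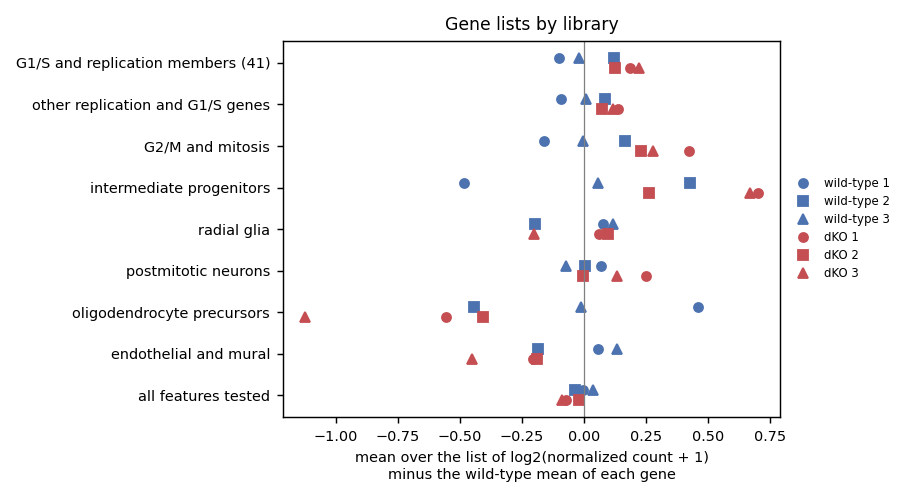
Mean over each gene list (y axis) of log2(normalized count + 1) minus the wild-type mean of each gene (x axis), with 1 point per library (wild-type blue, dKO red). The replication members lie between -0.10 and 0.12 (wild-type) and between 0.13 and 0.22 (dKO), the intermediate progenitor list spreads more widely (-0.48 to 0.42 and 0.26 to 0.70), and the mean over all features stays between -0.09 and 0.04.

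Library by library, the mean over the 41 members relative to wild-type was -0.10, 0.12 and -0.02 (log2) in the wild-type and 0.18, 0.13 and 0.22 in the dKO libraries. The second wild-type library lay just under the second dKO library, a gap of less than the spread within either genotype. Within the members, the deviation of a library also followed transcript length, with rank correlations over 41 genes of 0.41 and 0.50 in the wild-type and dKO libraries numbered 1, and between -0.39 and 0.02 in the others, as a description.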

How the data were processed

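PolyA+ RNA was sequenced as 150 bp paired-end reads from stranded libraries. The signal that the authors deposited for each FAST database gene is its read count after division by a per-library size factor, from DESeq2 according to the table's title. The submitters' processing notes name STAR 2.7.5a, SAMtools, Picard, FastQC and DESeq2 and the build mm10; the counting program and its strand setting are not given in the sources used here. Whole reads were recovered by division by the smallest positive value of a library, which gave a whole number (tolerance 0.01 reads) for 100.0% of values. Features without a symbol, with 8.48% to 9.62% of the reads, were kept.

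Genotypes were compared with limma 3.58.1 (R 4.3.3), with its trend and robust settings, as log2 of the normalized count plus a pseudocount of 1, in features averaging at least 10, with Benjamini-Hochberg adjustment over all of them and a threshold of 0.05. An exact two-sided permutation test was used for single ratios. Fitted to the recovered reads, edgeR 4.0.16 (quasi-likelihood test) called 19 features and DESeq2 1.42.0 called 207. On simulated counts of 18795 features for the 3 against 3 design, limma called 142 of 193 changed features, 26 of 66 at a log2 change of 0.5, with 10 false calls. The simulated counts were drawn independently, with the same dispersion for every feature. The other alternatives were pseudocounts of 0.1 and 10, no filter or a mean of at least 50, quantile normalization, TMM rescaling, limma without trend and robust options, the replicate number as a block, and each library left out.

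Every library is given for the 10 members with the largest absolute log2 fold change, the most abundant member of each role, 3 other pathway genes (largest changes without overlap, averaging at least 50) and 6 context genes. *Ccnd2*, *Cdc45* and *Cdc6* were added after their values were seen. The members, roles and marker lists were chosen with earlier results of these data known. Exon lengths come from GENCODE M21, matched by position for 41 members, and promoters from RefSeq (GRCm38.p6). Python 3.11.15 with pandas 2.3.3, scipy 1.17.1 and matplotlib 3.10.9 was used for the rest. Splicing, imaging and histology were not analysed here.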

Additional observations from a re-analysis of the deposited data

How the results depend on the processing

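In all 17 alternatives 0 members passed an adjusted *P*-value of 0.05 (lowest 0.113), 0 were lower at an unadjusted *P*-value under 0.05, and the median log2 fold change of the members stayed positive. Of the 41 members, 27 were above 0 and 2 below 0 in every setting, and 12 changed sign in at least 1, 10 of them only where a library was left out. The number of features past the adjusted threshold, 19, became 7 when limma ran without trend and robust, 207 with DESeq2, 9 with the replicate block, 5 without both libraries numbered 1 and between 7 and 46 with single libraries left out (7 without dKO library 3, 46 without dKO library 1). The 12 members higher at an unadjusted *P*-value under 0.05 became 6 when limma ran without trend and robust, where *Khdrbs3* (-1.05) also missed the adjusted threshold, 6 without both libraries numbered 1, and between 6 (without wild-type library 1 or dKO library 3) and 16 (without wild-type library 2), with 7 without wild-type library 3. The 3 members below 0 became 6 without both libraries numbered 1 and between 3 and 9 with single libraries left out (9 without wild-type library 1, 8 without dKO library 3, 5 without dKO library 1). The 14 members without overlap became between 14 and 25 (25 without wild-type library 2). Leaving out libraries can only keep or raise this count, and the matching share of all features is not given. The 15 other pathway genes at an unadjusted *P*-value under 0.05 became 5 without both libraries numbered 1 and between 8 and 20 (8 without dKO library 3, 9 without wild-type library 1 or dKO library 1). Leaving out both libraries numbered 1 was chosen after seeing the data and leaves 2 per genotype. Causes beyond the smaller number of libraries were not tested. Shares of all features at the unadjusted threshold are not given for these settings, so the counts do not compare members with other genes. Sign changes were *Pold1* (-0.0072) and *Pola1* (0.014) with quantile normalization, and *Rpa1* (-0.0077), *Rfc4* (-0.029) and *Pold1* (-0.074) without both libraries numbered 1. With single libraries left out the log2 fold change ranged from -0.037 to 0.13 for *Cdk2*, -0.063 to 0.14 for *Chaf1b*, -0.15 to 0.30 for *Rfc4*, -0.033 to 0.073 for *Rfc5*, -0.028 to 0.21 for *Rfc3*, -0.036 to 0.066 for *Pold1*, -0.065 to 0.16 for *Orc6*, -0.018 to 0.28 for *Gins3*, -0.036 to 0.20 for *Dnmt1*, -0.15 to 0.040 for *Pola1* and -0.028 to 0.13 for *Ccnd1*. The labels do not say whether the replicate numbers pair the samples. Deviations of same-numbered libraries from the mean of their genotype correlated at 0.098, -0.228 and -0.079 over 18970 features. Those of differently numbered libraries correlated between -0.138 and 0.205. Deviations within a genotype depend on each other, so these values cannot decide whether samples were paired. With the replicate block 13 members were higher at an unadjusted *P*-value under 0.05. With 3 libraries per genotype, limma recovered 26 of 66 simulated features changed by 0.5 on the log2 scale. The simulated spread was the same for every feature and was not estimated from these libraries. How often this design would call differences of the size seen here was therefore not tested.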

Other observations

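Further marker lists were read in the same comparison. Of 12 ganglionic eminence and interneuron genes, 0 had an unadjusted *P*-value under 0.05 (median log2 fold change -0.03, summed normalized counts 16784 to 22164 in wild-type and 15096 to 20154 in dKO). The same held for 8 microglial genes (median -0.01, sums of 2315 to 3510 and 2525 to 3092), for 5 tested erythroid genes (median 0.20, sums of 26438 to 34965 and 28911 to 38533) and for 3 tested choroid plexus genes (median -0.60, sums of 38.99 to 151 and 38.1 to 93.1), whose sums overlapped between the genotypes.

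Of the 3 inhibitors of G1/S with an unadjusted *P*-value under 0.05, the kinase inhibitors *Cdkn1b* and *Cdkn1a* lay on opposite sides of 0. They and *Ccna2* were chosen for description after their values were seen. *Cdkn1b*, the cyclin kinase inhibitor p27, was at 9031, 9265 and 8607 normalized counts in wild-type and 11102, 10152 and 10409 in dKO libraries, without overlap (log2 fold change 0.23 ± 0.07, adjusted *P* = 0.337, limma). *Cdkn1a*, the inhibitor p21, was at 649.6, 541 and 994 and 480.1, 542 and 513, with the third wild-type library far above the others (log2 fold change -0.46 ± 0.19, adjusted *P* = 0.402). The S-phase cyclin *Ccna2* had the lowest unadjusted *P*-value of the 79 other pathway genes, at 986, 1236 and 1178 and 1543, 1425 and 1547, without overlap (log2 fold change 0.41 ± 0.10, adjusted *P* = 0.263).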
